A study of Mus musculus with 6 samples.

Results

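The Fc gamma receptors of infarct macrophages were examined in the 6 genes of the deposited tables named Fcgr1, Fcgr2b, Fcgr3, Fcgr4, Fcer1g and Fcgrt, out of 54532 genes listed. All 6 passed the filter on low counts, as did 14522 genes in all. The libraries held RNA of Ly6G- CD11b+ cells, isolated with magnetic beads from individual mouse hearts 7 days after permanent occlusion of the left anterior descending coronary artery, in mice of 12 weeks on a C57BL/6 background. The 3 ITGA5 fl/fl hearts carried floxed alleles of the integrin α5 gene without Cre. The 3 Myα5KO hearts carried the same ITGA5 fl/fl alleles and LyzM-Cre, which acts in myeloid cells in general, neutrophils and monocytes included. Both groups had undergone infarction, so that no uninjured heart enters the comparison. CD64, the product of Fcgr1, was not used to select these cells.

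Fcγ receptors bind the constant part of IgG on opsonised particles and immune complexes and are among the defining surface proteins of macrophages. In the mouse the activating receptors are FcγRI (Fcgr1, the high-affinity receptor also known as CD64), FcγRIII (Fcgr3) and FcγRIV (Fcgr4). They signal through the common γ chain Fcer1g, whose ITAM motif recruits the kinase Syk. FcγRIIB (Fcgr2b) carries an ITIM in its own tail and acts as the inhibitory counterpart through phosphatases, whereas the neonatal receptor Fcgrt pairs with β2-microglobulin inside the cell and returns IgG and albumin to the surface.

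Total counts ranged from 15424451 to 18419287 per library, and 1 count corresponded to 0.0526 to 0.0670 CPM (read counts scaled to a common library size). Itga5, the targeted gene, lay at 568 to 653 CPM with the floxed alleles intact and had a mean of 48.7 ± 1.48 CPM after deletion (SD, n = 3), and fell by 3.64 on the log2 scale (SE 0.08, edgeR adjusted p 4.42e-12). Over all genes tested 517 rose and 754 fell at an adjusted p of 0.05 or less, which is 8.75% of the genes tested in either direction. The macrophage markers C1qa, Csf1r and Adgre1 were abundant in both groups, with mean levels between 1272 and 2601 CPM. Of the neutrophil markers Ly6g and Cxcr2 were too low to test, whereas 6 of the 8 that could be tested were higher in Myα5KO libraries, as given with the other cell markers at the end.

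In order to show what lies upstream of the activating receptors, the RefSeq promoter windows of the members (250 bases before and 50 bases after the start, build GRCm38.p6) were searched for 3 short motifs, on both strands. These were the interferon-γ activated site TTCNNNGAA, the PU.1 core GAGGAA and an interferon-stimulated response element of the form GAAA, any 2 bases and GAAA. The windows of Fcgr1 (chr3:96293920-96294219, minus strand), Fcgr3 (chr1:171059354-171059653, minus strand) and Fcgr4 (chr1:171018676-171018975, plus strand) are given 5′ to 3′ along the gene, since they were the members with a match. Capitals mark the motif matches.
Fcgr1: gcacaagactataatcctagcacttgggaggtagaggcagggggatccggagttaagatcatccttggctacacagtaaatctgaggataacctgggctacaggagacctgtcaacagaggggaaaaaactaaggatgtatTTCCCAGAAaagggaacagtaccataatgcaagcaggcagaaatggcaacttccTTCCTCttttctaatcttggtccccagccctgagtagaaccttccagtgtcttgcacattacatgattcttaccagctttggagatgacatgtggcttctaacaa
Fcgr3: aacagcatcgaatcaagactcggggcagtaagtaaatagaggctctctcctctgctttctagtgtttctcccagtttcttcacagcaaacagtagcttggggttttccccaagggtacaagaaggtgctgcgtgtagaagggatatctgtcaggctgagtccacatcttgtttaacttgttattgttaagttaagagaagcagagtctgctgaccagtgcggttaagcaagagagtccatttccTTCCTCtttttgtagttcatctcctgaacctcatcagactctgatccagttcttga
Fcgr4: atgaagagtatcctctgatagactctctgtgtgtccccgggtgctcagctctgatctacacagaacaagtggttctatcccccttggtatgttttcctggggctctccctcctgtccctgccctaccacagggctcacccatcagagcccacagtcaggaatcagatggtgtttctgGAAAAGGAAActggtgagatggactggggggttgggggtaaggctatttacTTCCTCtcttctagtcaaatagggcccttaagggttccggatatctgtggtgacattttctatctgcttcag

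The window of Fcgr1 held the interferon-γ activated site TTCCCAGAA at bases -109 to -101 from the start, and a PU.1 core on the opposite strand at bases -55 to -50. Fcgr4 held the response element GAAAAGGAAA at bases -73 to -64, and Fcgr3 and Fcgr4 each held a PU.1 core, also on the opposite strand. No match overlapped another. The windows of Fcgr2b, Fcer1g and Fcgrt held none of the 3 motifs, which says only that these letters are not in these windows. Among 27025 genes with a window, 9.55% held the interferon-γ activated site, 31.3% the PU.1 core and 3.99% the response element. A match is a description of sequence and not a measured binding site.

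Fcgr1 (ENSMUSG00000015947, chr3:96282909-96293969, minus strand) encodes FcγRI. Its level was 186, 198 and 201 CPM in the 3 libraries of ITGA5 fl/fl hearts and 235, 243 and 226 CPM in the 3 Myα5KO libraries. Every Myα5KO library lay above every ITGA5 fl/fl library. The mean went from 195 ± 7.57 to 235 ± 8.49 CPM (SD, n = 3 each), and Fcgr1 rose by 0.27 on the log2 scale (SE 0.06, edgeR adjusted p 0.0215), which is 1.20-fold with a 95% interval from 1.09 to 1.33. Fcgr1 was the 1 of 6 members called higher, and 0 of 6 were called lower by edgeR, by DESeq2 or at an unadjusted p under 0.05. Over all genes tested 3.56% were called higher and 5.19% lower. The call was lost in 4 of 6 fits that left out a library. With ITGA5 fl/fl library 1, 2 or 3 or Myα5KO library 2 left out, the log2 difference was 0.24, 0.28, 0.29 or 0.24, and the edgeR adjusted p was 0.0803, 0.0755, 0.0571 or 0.108. It was positive in 15 of 15 alternative analyses and past the threshold in 8 of them.

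**Figure D1:**
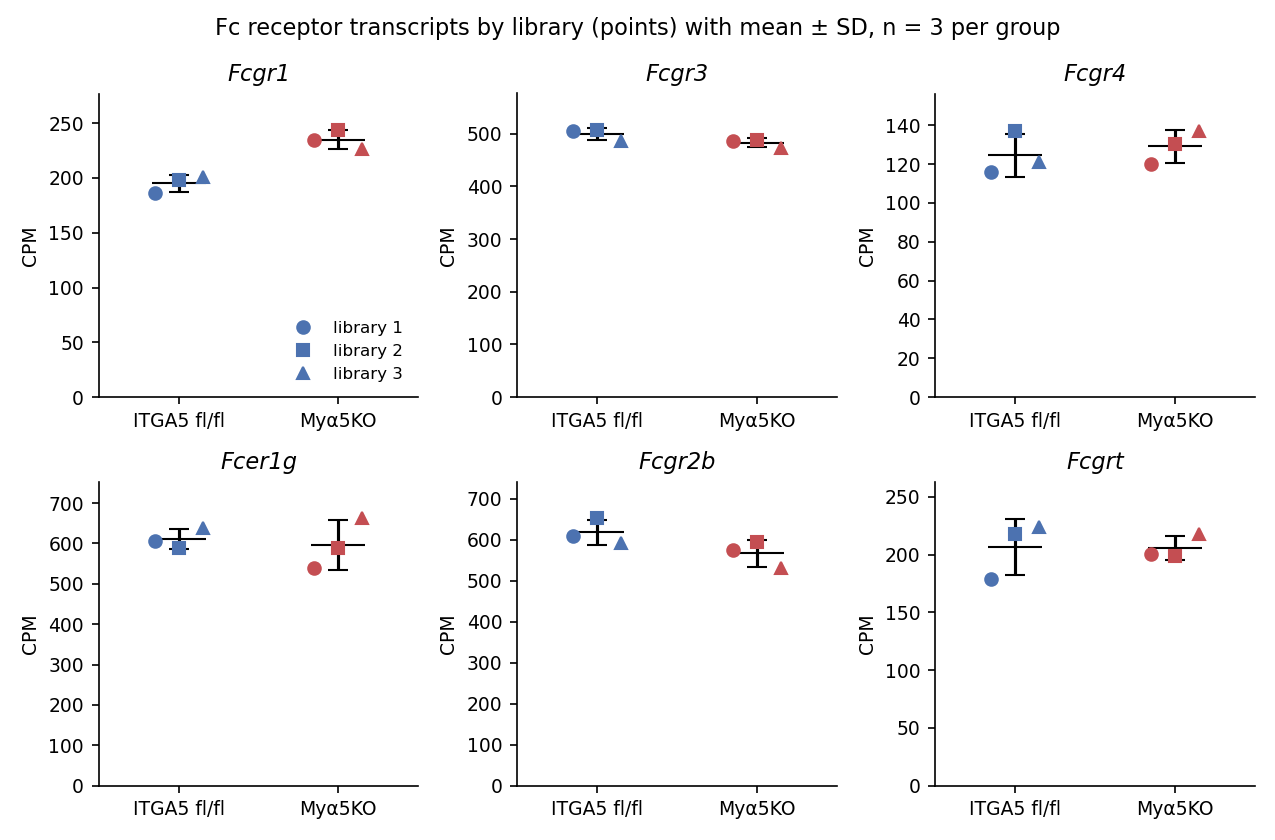
Level of each Fc receptor gene in CPM (vertical axis, from 0) in the 3 ITGA5 fl/fl and 3 Myα5KO libraries. Points are libraries (circle, square and triangle for libraries 1, 2 and 3, which the labels do not pair across groups), and bars show the mean ± SD. The groups separate for Fcgr1, with 186 to 201 against 226 to 243 CPM, and overlap for the other 5 genes.

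Next, the remaining activating chains were examined. Fcgr3 (ENSMUSG00000059498, chr1:171051174-171064935, minus strand) had 505, 506 and 486 CPM in ITGA5 fl/fl macrophages and 487, 489 and 474 CPM in Myα5KO macrophages. It showed the smallest spread of the 6 genes relative to its level, and the groups overlapped by a narrow margin. The log2 difference was -0.05 (95% interval -0.18 to 0.09, edgeR adjusted p 0.713). Fcgr4 (ENSMUSG00000059089, chr1:171018920-171029761, plus strand), which binds IgG2 subclasses with intermediate affinity, had 116, 137 and 121 CPM in ITGA5 fl/fl libraries and 120, 130 and 137 CPM in Myα5KO libraries. These ranges nearly coincided. The log2 difference was 0.05 (95% interval -0.11 to 0.22, edgeR adjusted p 0.740).

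The shared signalling chain Fcer1g (ENSMUSG00000058715, chr1:171229572-171234365, minus strand) had 605, 589 and 639 CPM in ITGA5 fl/fl libraries and 539, 589 and 662 CPM in Myα5KO libraries. The Myα5KO libraries held both the lowest and the highest value. The log2 difference was -0.03 (95% interval -0.21 to 0.14, edgeR adjusted p 0.840). In fold terms the interval runs from 0.865 to 1.10, so that a change of the γ chain transcript beyond those bounds lies outside it.

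Inhibitory Fcgr2b (ENSMUSG00000026656, chr1:170958617-170976547, minus strand) had 608, 652 and 593 CPM in ITGA5 fl/fl libraries and 574, 594 and 531 CPM in Myα5KO libraries. The highest Myα5KO library reached just above the lowest ITGA5 fl/fl library, and the groups therefore overlapped. The log2 difference was -0.13 (SE 0.07, 95% interval -0.28 to 0.03, edgeR adjusted p 0.320), and it was negative in 15 of 15 alternative analyses, of which none called it. The neonatal receptor Fcgrt (ENSMUSG00000003420, chr7:45092990-45103851, minus strand) had 179, 218 and 224 CPM in ITGA5 fl/fl libraries and 201, 199 and 218 CPM in Myα5KO libraries. ITGA5 fl/fl library 1 was the lowest and library 3 the highest of the 6. The log2 difference was -0.01 (95% interval -0.19 to 0.17, edgeR adjusted p 0.976).

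Across the 6 members the median log2 difference was -0.02, against 0.01 over all genes tested. The groups did not overlap for 1 member, whereas 28.6% of all genes tested had groups that did not overlap. Summed over the members, the level was 2200 to 2300 CPM in ITGA5 fl/fl libraries and 2156 to 2248 CPM in Myα5KO libraries. The signs of Fcgr3, Fcer1g and Fcgrt depended on the scaling. With library-size scaling alone their log2 differences were 0.03, 0.05 and 0.07, and 70.1% of all calls in the table were increases, against 40.7% with TMM scaling. In bulk samples, fewer cells of a type and less RNA per cell cannot be told apart.

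**Figure D2:**
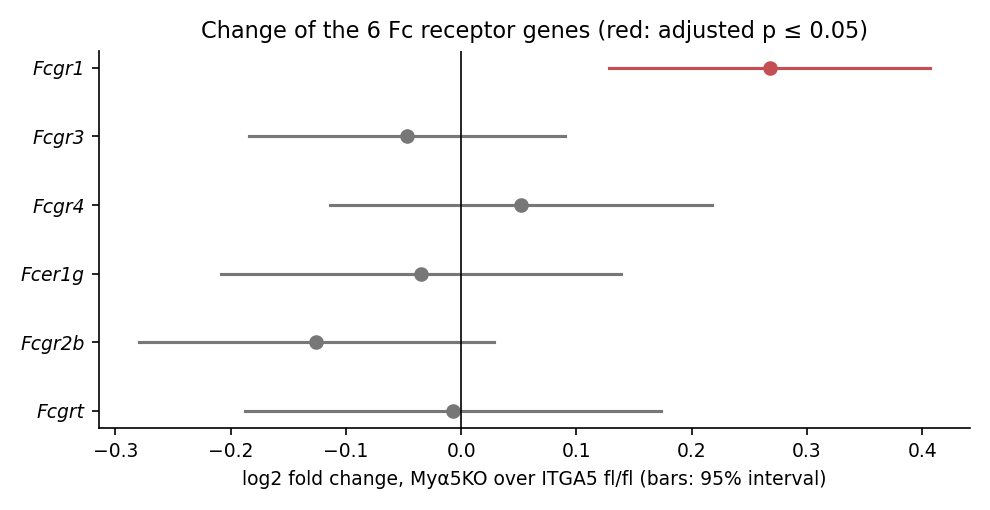
Log2 fold change of Myα5KO over ITGA5 fl/fl macrophages (horizontal axis) for the 6 genes, with 95% intervals from edgeR. Only the interval of Fcgr1, 0.13 to 0.41, lies above 0, and it is the gene past an adjusted p of 0.05 (red).

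Levels of different genes were compared per length, as deposited FPKM (counts scaled for gene length and library depth). In ITGA5 fl/fl macrophages Fcer1g was the most abundant at 696 ± 30.8 FPKM and ranked 52 among the genes tested. Fcgr3 followed at 286 ± 6.17, then Fcgr2b at 106 ± 4.95, Fcgr4 at 98.7 ± 8.48, Fcgrt at 98.0 ± 11.3 and Fcgr1 at 75.0 ± 2.84 FPKM (SD, n = 3). Each step from Fcer1g to Fcgr3 and from Fcgr3 to Fcgr2b exceeded the spread between libraries, whereas Fcgr2b, Fcgr4 and Fcgrt overlapped. Fcgr1 lay lowest, with its highest library at 77.4 FPKM below the lowest library of Fcgrt at 85.0 FPKM. In Myα5KO macrophages Fcer1g had 677 ± 65.1, Fcgr3 276 ± 6.95, Fcgr4 102 ± 6.09, Fcgrt 97.2 ± 4.15, Fcgr2b 97.1 ± 6.24 and Fcgr1 90.0 ± 3.89 FPKM. There the highest Fcgr1 library, at 93.6 FPKM, exceeded the lowest Fcgr2b library, at 90.1 FPKM, and neighbours among these 4 genes were not separated by their spread.

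The place of Fcgr2b in this order rested on the length assigned to it. The deposited gene length of Fcgr2b is 5790 bases, whereas its longest protein-coding transcript in GENCODE M21 has 3544 bases and the median of its coding transcripts is 1520 bases. The same counts per longest coding transcript gave 174 ± 8.09 FPKM for Fcgr2b in ITGA5 fl/fl macrophages, above Fcgrt at 116 ± 13.5 and Fcgr4 at 98.7 ± 8.48. Per median coding transcript Fcgr2b had 405 ± 18.9 FPKM and Fcgr3 375 ± 8.08 FPKM, and their order was turned. Fcer1g ranked highest and Fcgr1 lowest with all 3 lengths and in both groups. Differences between the groups do not depend on the length, which is the same in every library.

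**Figure D3:**
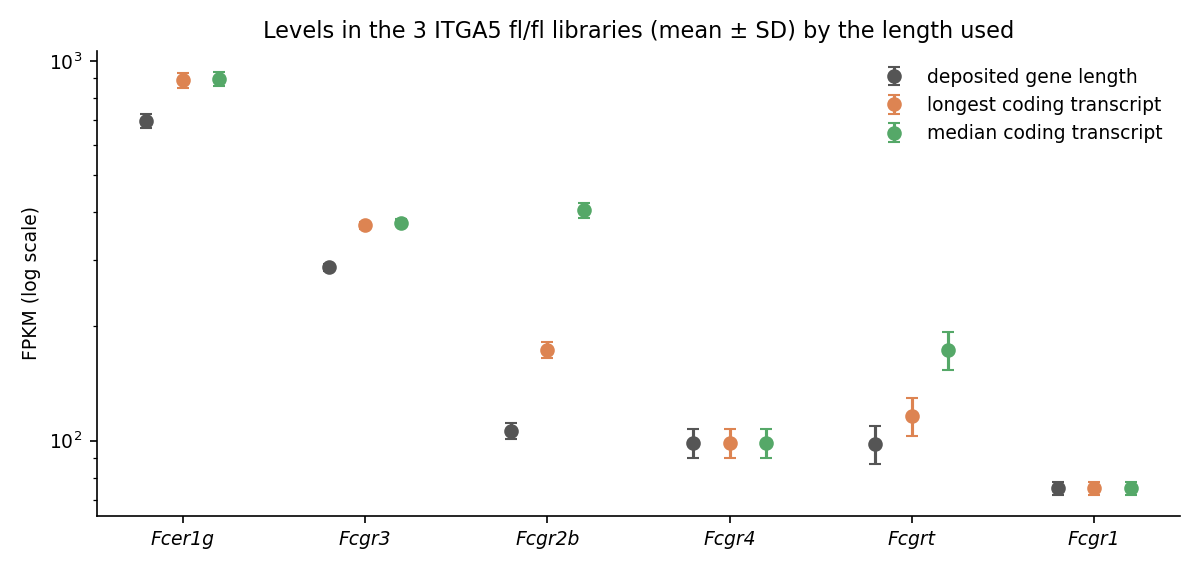
FPKM on a log scale (vertical axis) of each gene in the 3 ITGA5 fl/fl libraries (mean ± SD) with the deposited gene length, the longest coding transcript and the median coding transcript. Fcgr2b moves from 106 to 174 and 405 FPKM, while Fcgr1 and Fcgr4 have 1 coding transcript and stay in place.

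In order to describe the balance between activating and inhibitory receptors, ratios of FPKM were taken within each library. The ratio of Fcgr1 to Fcgr2b was 0.685, 0.678 and 0.758 in ITGA5 fl/fl libraries and 0.915, 0.916 and 0.953 in Myα5KO libraries. The groups were separated, as Fcgr1 was higher and Fcgr2b on average lower in Myα5KO libraries. The absolute ratio carries the length of Fcgr2b and was 0.433 and 0.568 on average per longest coding transcript. The ratio of Fcgr4 to Fcgr2b was 0.876 to 0.969 in ITGA5 fl/fl libraries and 0.963 to 1.19 in Myα5KO libraries, and that of Fcgr3 to Fcgr2b was 2.59 to 2.77 and 2.75 to 2.98. Both pairs of ranges overlapped. Fcgr1 made up 15.8%, 16.0% and 17.1% of the summed FPKM of the 3 activating receptors in ITGA5 fl/fl libraries and 19.4%, 19.6% and 18.6% in Myα5KO libraries. The γ chain exceeded the sum of these 3 receptors in every library, by 1.41 to 1.61 times in ITGA5 fl/fl and 1.32 to 1.61 times in Myα5KO macrophages. Other receptors that use the γ chain are not in that sum. These ratios are descriptions and were not tested.

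**Figure D4:**
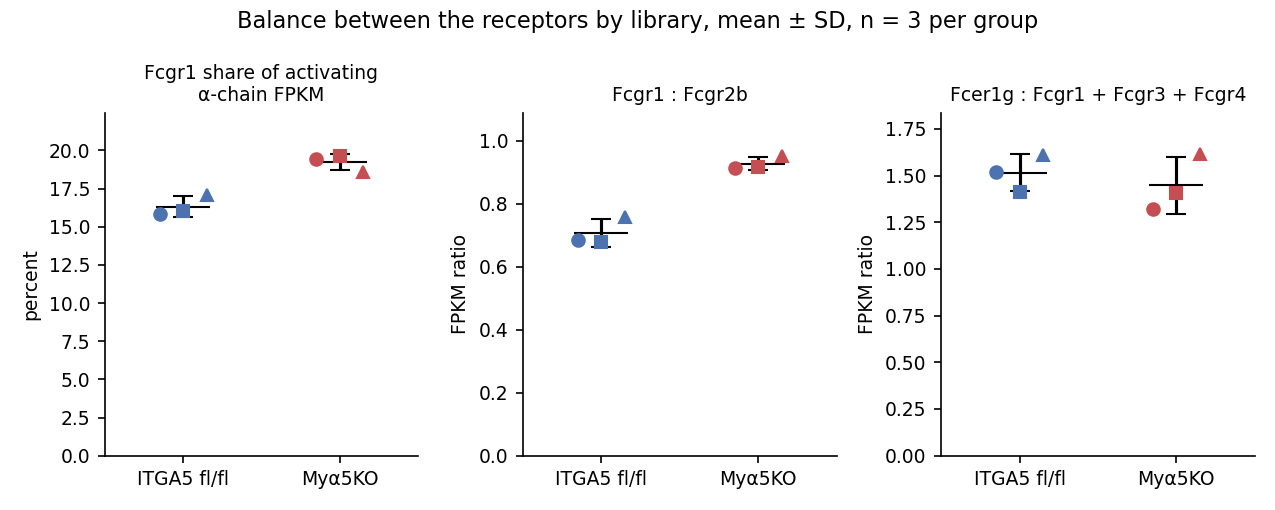
Share of Fcgr1 in the summed FPKM of Fcgr1, Fcgr3 and Fcgr4 (percent), FPKM ratio of Fcgr1 to Fcgr2b, and FPKM ratio of Fcer1g to the 3 activating receptors, by library (points) with mean ± SD. The share of Fcgr1 is 15.8% to 17.1% against 18.6% to 19.6%, and the γ chain ratio overlaps between groups.

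Fcgr2b and Fcgr3 are close relatives, and sequence that they share bears on how reads were divided between them. Of all stretches of 50 bases in their coding transcripts, 6.72% of those of Fcgr2b and 10.2% of those of Fcgr3 also occurred in the transcript of another gene, and for Fcgr3 that gene was Fcgr2b alone. The longest identical stretch had 129 bases and lay inside the coding sequence of both, at bases 402 to 530 of transcript Fcgr2b-201 and 313 to 441 of Fcgr3-201. It is shown because a read placed wholly within it cannot tell the 2 genes apart.
shared stretch: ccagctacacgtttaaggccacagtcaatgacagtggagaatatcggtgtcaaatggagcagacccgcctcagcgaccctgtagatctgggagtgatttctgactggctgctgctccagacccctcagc

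No stretch of 150 bases, the length of a read, was shared with another gene by any of the 6 members, and Fcgr1, Fcgr4, Fcer1g and Fcgrt shared no stretch of 50 bases. The treatment of reads with several matches is not given in the sources used here, and the counts of Fcgr2b and Fcgr3 carry that uncertainty. Fcgr2b overlaps the antisense gene Gm38204, which had 1 to 7 counts per library against 9078 to 11104 for Fcgr2b.

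Fcgr2b, Fcgr4, Fcgr3 and Fcer1g lie within 275.749 kb of chromosome 1, together with 13 other annotated genes. Of the 17 genes in this interval 9 were tested and 0 were called by edgeR or passed an unadjusted p under 0.05, and 0 of the 7 that DESeq2 tested were called by it. The neighbours that were tested were Sdhc, a subunit of succinate dehydrogenase, with a log2 difference of 0.07 (edgeR adjusted p 0.645), Tomm40l with 0.10 (0.727), Pcp4l1 with -0.09 (0.764), Cfap126 with -0.24 (0.688) and Apoa2 with -0.34 (0.585). Cfap126 and Apoa2 had about 1 CPM, and their intervals reach from -0.90 to 0.41 and from -1.03 to 0.36. Fcgr1 lies on another chromosome.

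The genes whose log2 CPM followed each member most closely over the 6 libraries were found among 9359 genes with at least 100 counts on average. These likenesses are descriptions over 6 libraries that share depth and group. Since the 2 closest of 9359 genes were kept for each member, a high r follows in part from that choice. Fcgr1 was followed by Trim30d (Pearson r 0.994), which rose by 0.50 on the log2 scale (edgeR adjusted p 0.00236), and by Secisbp2 (r 0.994), which was not called. Fcgr2b was followed by Loxl3 (0.990) and Zfp629 (0.976), Fcgr3 by Abhd4 (0.992) and Uaca (0.989), and Fcgr4 by Dcaf11 (0.990) and Rinl (0.980). Fcer1g was followed by Cox8a (0.994) and Spdl1 (0.983), and Fcgrt by the chemokine Ccl9 (0.993) and Glipr2 (0.992). Of these 12 genes Trim30d was called.

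Of 18 tested signalling genes downstream of the ITAM, 13 were not called, 3 rose and 2 fell, with a median log2 difference of -0.06. Over all genes tested 3.56% were called higher and 5.19% lower. Syk, the kinase that docks on the phosphorylated γ chain, had 948, 859 and 876 CPM in ITGA5 fl/fl libraries and 688, 675 and 614 CPM in Myα5KO libraries. It fell by 0.44 on the log2 scale (SE 0.07, edgeR adjusted p 0.00291), in 15 of 15 alternative analyses. Pik3cd, the δ catalytic subunit of phosphoinositide 3-kinase, had 147, 148 and 134 CPM against 187, 185 and 187 CPM. It rose by 0.38 (SE 0.06, edgeR adjusted p 0.00305), also in 15 of 15 alternatives. The Src-family kinase Fyn fell by 0.27 (edgeR adjusted p 0.0261), while Was, which drives actin assembly in the phagocytic cup, rose by 0.22 (0.0373). These calls were less firm. Fyn was called in 2 of 6 fits with 1 library left out and Was in 1 of 6, and 2 or 3 genes of this group were called in each of those fits. The Src-family kinase Lyn, at 436 and 389 CPM on average, was not called (log2 difference -0.16, edgeR adjusted p 0.160).

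The inhibitory side held 14 tested genes, of which 2 rose and 1 fell, with a median of 0.08. The shares called over all genes tested were 3.56% higher and 5.19% lower. Ptpn6, which encodes the phosphatase SHP-1, had 189, 168 and 174 CPM in ITGA5 fl/fl libraries, and all 3 Myα5KO libraries lay higher, at a mean of 256 ± 5.30 CPM. It rose by 0.53 on the log2 scale (SE 0.07, edgeR adjusted p 4.30e-04) and was called in 15 of 15 alternatives. Inpp5d, the lipid phosphatase SHIP-1 that Fcgr2b is best known to recruit, was not called (log2 difference -0.21, edgeR adjusted p 0.109). The adaptor Dok3 rose by 0.33 (edgeR adjusted p 0.0158), and the membrane adaptor Pag1 fell by 0.36 (0.0456). Dok3 lost its call without ITGA5 fl/fl library 2 or 3 (adjusted p 0.0663 or 0.0751), and Pag1 was called in 1 of 6 such fits. Without ITGA5 fl/fl library 3, 1 of the 14 genes was called. Sirpa, the most abundant of the list, had a log2 difference of 0.13 (edgeR adjusted p 0.274).

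Other receptors that use the common γ chain, and the sister adaptor Tyrobp, were examined beside Fcer1g itself. Of 6 tested genes, 2 fell and none rose by edgeR or at an unadjusted p under 0.05, and none of the 5 that DESeq2 tested rose by it. Among all genes tested by edgeR 5.19% were called lower and 3.56% higher. Clec4e, which encodes the C-type lectin Mincle, had 542, 536 and 629 CPM in ITGA5 fl/fl libraries and 337, 351 and 290 CPM in Myα5KO libraries. It fell by 0.80 on the log2 scale (SE 0.09, edgeR adjusted p 1.88e-04). Its partner Clec4d had 238, 247 and 285 CPM against 174, 157 and 169 CPM, and fell by 0.63 (SE 0.08, edgeR adjusted p 3.91e-04). Both were called in 15 of 15 alternatives. Tyrobp, the ITAM adaptor of TREM2 and the most abundant of the list, had 632 ± 23.9 and 620 ± 39.2 CPM (log2 difference -0.03, edgeR adjusted p 0.856). Oscar and Gp6 were too low to test.

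Genes induced by interferon-γ are listed because Fcgr1 itself is a known target of that cytokine. Of 13 tested, 10 rose by edgeR and 9 by DESeq2, and none fell by either tool or at an unadjusted p under 0.05, with a median log2 difference of 0.37. By edgeR 3.56% of all genes tested were called higher. Ciita, the regulator of MHC class II genes, had 22.0, 29.2 and 19.3 CPM in ITGA5 fl/fl libraries and 34.7, 36.2 and 41.9 CPM in Myα5KO libraries. It rose by 0.68 (SE 0.13, edgeR adjusted p 0.00617). The chemokines Cxcl9 and Cxcl10 rose by 0.98 (0.0306) and 0.39 (0.0228), and the guanylate-binding proteins Gbp2 and Gbp7 by 0.46 (0.0301) and 0.45 (0.0115). Gbp2 was called in 2 of 6 fits with 1 library left out, and was not called without ITGA5 fl/fl library 1 or 3 or Myα5KO library 1 or 2 (adjusted p 0.0525 to 0.134). Gbp7 lost its call without ITGA5 fl/fl library 3 (0.0593), and Cxcl10 without ITGA5 fl/fl library 1 (0.0562) or Myα5KO library 2 (0.0945). Cxcl9 was not called by DESeq2 (adjusted p 0.126) or without ITGA5 fl/fl library 1 (0.0856) or 3 (0.118). It was uneven, with 31.6 CPM in Myα5KO library 2 and lower levels in the other two, against 9.2 to 12.0 CPM in the controls, and had a log2 difference of 0.50 (adjusted p 0.0643) without Myα5KO library 2. Irf1, the most abundant of the list, was not called (0.15, edgeR adjusted p 0.499). The count of 10 fell to 4 without ITGA5 fl/fl library 1 or 3 or Myα5KO library 2, and to 1 with limma on log2(FPKM + 1). Of the 10 genes of the list with a promoter window, 4 held the interferon-γ activated site, against 9.55% of all genes with a window. The response element was held by 5, against 3.99%, and the PU.1 core by 3, against 31.3%. Whether these matches bear on the changes was not tested.

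**Figure D5:**
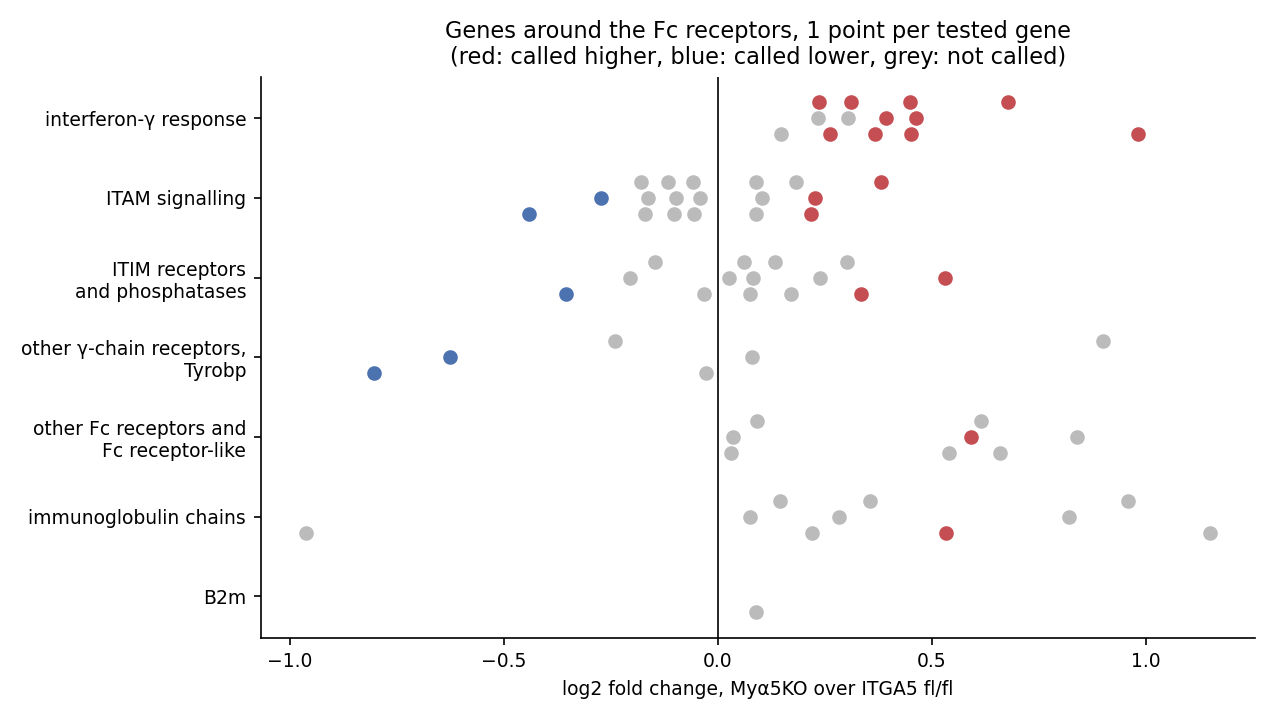
Log2 fold change of Myα5KO over ITGA5 fl/fl (horizontal axis) for each tested gene of 7 groups around the Fc receptors (1 row of points per group, with vertical offsets for legibility only). In the interferon-γ group 10 of 13 genes are called higher, whereas the ITAM group holds 3 called higher and 2 called lower.

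Other Fc receptors and Fc receptor-like genes were mostly scarce. Of 12 listed 8 were tested, and 1 rose, against 3.56% called higher over all genes tested. The log2 difference was positive for all 8, with a median of 0.57. At an unadjusted p under 0.05, 5 were higher, and the share of all genes at that threshold is not given here. Those of the 5 that were not called had means of 0.885 to 5.24 CPM and edgeR adjusted p of 0.155 to 0.192. Without a count filter 3 genes of the list were called, as were 1738 of 27687 genes tested. Trim21, a cytosolic antibody receptor, had 4.9, 4.9 and 5.1 CPM in ITGA5 fl/fl libraries and 6.8, 7.0 and 8.6 CPM in Myα5KO libraries. It rose by 0.59 on the log2 scale (SE 0.15, edgeR adjusted p 0.0247). Its call was lost without ITGA5 fl/fl library 1, 2 or 3 or Myα5KO library 3, with adjusted p from 0.0645 to 0.0823. Fcrls was the most abundant of the list, at 904 ± 47.4 and 926 ± 96.2 CPM, without a call. Fcer1a, the ligand-binding chain of the IgE receptor of mast cells, was at 0 counts in all 6 libraries.

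Immunoglobulin transcripts were present, those of IgG at low levels. Of 10 immunoglobulin chain genes 1 rose and 0 fell, against 3.56% called higher and 5.19% lower over all genes tested. The IgG heavy chains, which encode the ligands of the Fcγ receptors, were not called by the main edgeR fit. Ighg1 was called in 1 of 13 alternatives, Ighg2c in 2 of 15 and Ighg3 in 3 of 15, while Ighg2b was called in 0 of 15. Without a count filter 7 of the 10 immunoglobulin chain genes were called, as were 1738 of 27687 genes tested. Ighg1 had 1.06 and 2.03 CPM on average in ITGA5 fl/fl and Myα5KO libraries, Ighg2b 10.4 and 11.0 CPM, Ighg2c 11.4 and 5.85 CPM (log2 difference -0.96, edgeR adjusted p 0.113) and Ighg3 3.06 and 6.88 CPM (1.15, edgeR adjusted p 0.0531). Ighg2c was called lower without Myα5KO library 1 (-1.53, edgeR adjusted p 0.00904) and Ighg3 higher without Myα5KO library 2 (1.45, 0.00778). Reads of these related chains may have been divided between them, and each gene's groups overlapped. Igha had 33.8, 44.5 and 35.9 CPM in ITGA5 fl/fl libraries and 56.7, 45.9 and 62.8 CPM in Myα5KO libraries, and rose by 0.53 on the log2 scale (SE 0.12, edgeR adjusted p 0.0132). The call was lost without ITGA5 fl/fl library 3 (adjusted p 0.0639). Ighm was the most abundant, with 402 to 491 CPM in ITGA5 fl/fl libraries and 409 to 639 CPM in Myα5KO libraries, and was not called. B2m, the light chain that pairs with Fcgrt, had 2010 ± 121 and 2137 ± 134 CPM (log2 difference 0.09, edgeR adjusted p 0.546).

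Markers of some other cells that carry Fc receptors were higher in Myα5KO libraries. Beside the counts that follow, 3.56% of all genes tested were called higher and 5.19% lower by edgeR. Of 10 neutrophil markers 8 were tested and 6 were called higher, and their summed level was 73.8 to 116 CPM in ITGA5 fl/fl and 165 to 265 CPM in Myα5KO libraries. For nonclassical monocytes 4 of 7 markers were called higher (1365 to 1538 against 1816 to 2087 CPM) and for B cells 2 of 8 (117 to 161 against 163 to 251 CPM). For classical monocytes 3 of 7 were called higher and 2 had a negative log2 difference. The classical sums overlapped, at 715 to 872 against 838 to 979 CPM. Their largest part was F13a1, at 474 and 456 CPM on average, which was not called. Most of the nonclassical sum lay in Nr4a1, at 1031 and 1376 CPM on average, and Cx3cr1, at 269 and 366 CPM. Treml4 of the same list had 8.91 and 8.75 CPM on average and was not called. NK cell markers summed to 19.7 to 25.3 and 26.9 to 32.8 CPM. Of these, 0 of 8 were called by edgeR, with a lowest adjusted p of 0.0721, and 0 of the 5 that DESeq2 tested by it. At an unadjusted p under 0.05, 4 of the 8 were higher, and the share of all genes at that threshold is not given here. Those of mast cells and basophils summed to 28.1 to 28.8 and 25.8 to 28.7 CPM, with Fcer1a at 0 and 0 of the 2 tested genes called by edgeR, by DESeq2 or at an unadjusted p under 0.05. Of 10 macrophage markers 8 were not called and 2 were lower, and the summed level was 24408 to 24977 CPM against 19060 to 19685 CPM. The 2 were Cd14, at 4755 and 3489 CPM on average, and Lyz2, the locus into which LyzM-Cre is inserted, at 7315 and 3874 CPM, and most of the lower sum lay in them. Fibroblast markers summed to 1214 to 1427 against 921 to 1189 CPM with 1 of 6 lower, endothelial markers to 322 to 359 against 339 to 386 CPM with 1 of 8 higher and 1 lower, dendritic cell markers to 41.0 to 60.0 against 56.1 to 63.0 CPM with 1 of 7 higher, and cardiomyocyte markers to 17.6 to 20.0 against 11.4 to 16.0 CPM with 2 of 5 lower. The part of these cells in the levels of Fcgr1 and of the interferon-γ group was not tested.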

How the data were processed

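RNA-seq was performed on 3 ITGA5 fl/fl and 3 Myα5KO libraries of cardiac macrophages (NEBNext Ultra kit, paired-end 150-base reads), and groups were taken from the sample titles. Reads were aligned by the authors with TopHat2 2.0.9 to GRCm38, and the deposited counts are whole reads per gene from HTSeq 0.6.1, without normalization. Handling of strand is not given in the sources used here. The authors also deposited FPKM, which for the members equal the count divided by the deposited gene length and a constant per library. The main test was edgeR 4.0.16 in its quasi-likelihood form (R 4.3.3, TMM scaling, default filter with a minimum count of 10 and a minimum total of 15) in 14522 genes, two-sided, with Benjamini-Hochberg adjustment over all of them and a threshold of 0.05. Positive differences are higher in Myα5KO. DESeq2 1.42.0, limma 3.58.1 on log2(FPKM + 1) and log2(FPKM + 0.1), other scalings and filters, a replicate block, a threshold of 0.01 and leaving out each library were alternatives. The members, gene lists and motifs were chosen with earlier results of these data known. Beside the members and Itga5, the text names up to 6 called genes with the largest change and the most abundant gene of each list, the 2 genes most alike each member and the tested neighbours on chromosome 1. Lyn, Inpp5d, the IgG chains and the marker genes, and those named as too low to test, were named outside this rule, after their values were seen. The values of 2 genes of the lists are not reported here. Promoters are from RefSeq and transcripts from GENCODE M21. The scripts were tested on simulated data. Per the study's methods, each heart was digested on its own, whereas the labels do not tie a library to an animal. Libraries of a group differed by at least 5.59 in chi-square per degree of freedom. Counts come from amplified reads, so their precision covers counting error only.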

Additional observations from a re-analysis of the deposited data

How the results depend on the processing

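Members kept their side of the threshold under every alternative run except Fcgr1. Its log2 difference was 0.26 with limma on log2(FPKM + 1) and on log2(FPKM + 0.1) (adjusted p 0.0532 and 0.0545), and 0.27 at a threshold of 0.01, none of which call it, so that 0 members were then called higher. With 1 library left out it was 0.24 to 0.29, and 0 to 1 members were called higher. DESeq2, the replicate block and all scalings and filters called it. The sign turned for Fcgr3 (0.034), Fcer1g (0.046) and Fcgrt (0.074) with library-size scaling. With 1 library left out, Fcer1g ranged from -0.12 to 0.029 and Fcgrt from -0.10 to 0.052. Calls over all genes, higher and lower, were 150 and 322 with log2(FPKM + 1), 142 and 306 with log2(FPKM + 0.1), 128 and 342 at 0.01, 1212 higher with library-size scaling, 798 higher without a filter, and 187 to 420 and 429 to 671 with 1 library left out. The replicate block gave 1181 calls against 1271, of which 1099 were shared, and called 1 member, as without it. The deviations of libraries with the same number had correlations of 0.05, -0.06 and 0.04, against -0.10 to 0.063 for different numbers. The labels do not say whether the numbers are pairs, and weak pairing could leave correlations this small, so they cannot decide it. Lengths from coding transcripts were chosen after seeing the data. The mean ratio of Fcgr1 to Fcgr2b was then 0.433 and 0.568 (ITGA5 fl/fl and Myα5KO, longest) and 0.186 and 0.244 (median), and Fcgr2b ranked 3 in Myα5KO by the longest and 2 in both groups by the median transcript, against 3 and 5. Of the other genes named, Tyrobp turned sign with library-size scaling (0.053), and with 1 library left out Fcrls (-0.048 to 0.11), Ighg2b (-0.38 to 0.42), Ighm (-0.10 to 0.26) and Irf1 (-0.0066 to 0.30) did, all uncalled with 6 libraries. With 3 libraries a group, changes smaller than the intervals of the members cannot be seen.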
